A study of Mus musculus with 4 samples.

Results

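The genes described here are the 200 most read mouse kidney genes with at least 90% of their reads counted in introns. They were taken from 38924 listed genes by summing 4 libraries, keeping the 5576 genes whose intron reads made up at least 90% of their gene reads, and ranking these by total gene reads. The members ran from 428022 reads for Cdk8 to 850 reads for Mrpl48-ps and Gm8210, and together they held 3490672 reads. The members were chosen by their intron share and read total, so both are given as descriptions without a test. At the 90% limit, Il4i1 and Spata5 were just inside with 90.07% and 90.13%. Gm14306, Kpna1 and Gm20422 were just outside with 89.93%, 89.88% and 89.88%. At rank 200, Gm11077, Mrpl48-ps and Gm8210 were inside with 857, 850 and 850 reads, and Gm26693, Pax6os1 and 4930533K18Rik were outside with 848, 842 and 838.

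Introns are transcribed with the rest of a gene and are removed from the RNA by splicing, so mature messenger RNA is read mainly in exons. A count table assigns a read to an intron when it falls inside the gene's boundaries and outside its annotated exons. Such reads can come from unspliced RNA, from another gene lying in the same interval, or from a sequence copied elsewhere in the genome, and a table of counts does not separate these sources.

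The kidneys were taken one day after the last injection from female SCID mice of the CB-17 strain (Balb/c background), whose B and T cells are not functional. The saline group (2 libraries) received saline and the immune complex group (2 libraries) received complexes of IgG with galactose-deficient IgA1, both by tail vein 3 times in 7 days. The labels do not tie each library to its own mouse, so every p-value here reflects library-to-library spread, which may be technical. Library totals were 19675879 to 22791960 gene reads, of which 83.4% to 85.0% were uniquely placed. Uniquely placed here means listed as unique in the deposited counts. How reads lying in overlapping genes enter that number was not given in the sources used here. All 11 kidney markers checked, among them Lrp2, Umod and Nphs1, were read in every library, with summed levels of 16646 to 22995 CPM (reads scaled to the library total, with TMM scaling). The sum hides larger differences of single markers. Aqp2 had 1704, 544, 528 and 302 CPM in saline 1, saline 2, immune complex 1 and immune complex 2, and Kap had 3714, 5776, 3917 and 8797 CPM. Of the 11 markers, 4 were fitted higher and 7 lower with immune complexes. The 8 adipocyte markers summed to 56.6 and 457 CPM with saline and to 1439 and 1101 CPM with immune complexes, with Lep at 0 in saline 1. The 4 haemoglobin genes summed to 531 and 471 CPM with saline and 893 and 908 CPM with immune complexes. The 5 urothelial markers summed to 5.31 and 51.9 CPM with saline and 11.2 and 10.5 CPM with immune complexes, and the 6 macrophage markers to 123 and 139 CPM and to 139 and 156 CPM. The part of these cell types in the group differences below was not tested. In bulk tissue, fewer cells of a type and less RNA per cell cannot be told apart.

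Several members are short genes or gene copies, and their sequences, taken from GENCODE M21 (GRCm38), show what their reads could be matched to. Gm12896 (chr4:122122847-122123072) and Gm12895 (chr4:122455210-122455435) are a pair of 226-base pseudogenes on the plus strand, shown because they share 224 bases with 100% identity. The capitals mark the bases outside the shared stretch.
Gm12896: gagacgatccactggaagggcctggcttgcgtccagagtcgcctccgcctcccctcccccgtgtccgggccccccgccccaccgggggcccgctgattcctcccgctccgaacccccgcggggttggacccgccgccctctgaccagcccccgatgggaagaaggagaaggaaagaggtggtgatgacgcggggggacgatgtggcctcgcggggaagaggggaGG
Gm12895: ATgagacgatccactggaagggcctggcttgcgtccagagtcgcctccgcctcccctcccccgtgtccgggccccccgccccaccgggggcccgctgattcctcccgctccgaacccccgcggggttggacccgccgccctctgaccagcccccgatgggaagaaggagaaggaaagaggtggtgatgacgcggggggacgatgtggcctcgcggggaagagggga

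Processed pseudogenes are copies of messenger RNAs inserted into the genome. For 3 coding genes, 60 bases of the coding sequence are set beside the same stretch of a member, with differing bases in capitals. Each window was placed where the member printed last in its set differs most from the coding gene, so the Gm12715 stretch holds 0 differing bases. The Rpl3-ps1 stretch is at chrX:13202598-13202657, the Gm13394 stretch at chr2:28934235-28934294, the Gm12715 stretch at chr4:103563786-103563845 and the Actg-ps1 stretch at chr8:46229377-46229436.
Rpl3: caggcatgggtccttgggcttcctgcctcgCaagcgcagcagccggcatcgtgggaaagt
Rpl3-ps1: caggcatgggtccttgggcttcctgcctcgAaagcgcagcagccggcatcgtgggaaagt
Gapdh: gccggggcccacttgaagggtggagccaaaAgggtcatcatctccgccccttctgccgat
Gm13394: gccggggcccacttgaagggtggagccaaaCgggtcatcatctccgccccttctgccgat
Actg1: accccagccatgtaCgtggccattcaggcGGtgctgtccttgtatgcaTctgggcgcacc
Gm12715: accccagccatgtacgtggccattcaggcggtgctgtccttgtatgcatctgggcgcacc
Actg-ps1: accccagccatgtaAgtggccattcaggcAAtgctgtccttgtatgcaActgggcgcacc

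By gene type and name, 72 members were named protein-coding genes and 40 were pseudogenes. Another 25 were antisense or overlapping noncoding genes, and 9 were small, transfer or ribosomal RNA genes. The other 54 were further gene models, such as long noncoding RNAs, readthrough models and protein-coding models with a provisional name. By GENCODE type alone 91 members were protein-coding, so 72 is not the protein-coding total. The named protein-coding genes held 62.9% of the members' reads, the other gene models 20.6%, the RNA genes 7.39%, the pseudogenes 6.59% and the antisense genes 2.56%. Reads were concentrated in few members: the 3 most read held 29.7% and the 10 most read 60.5% of them.

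The intron share of 47 members was fixed by their annotation. The deposited tables list 0 exons for these genes, and every read of such a gene is counted as intron. The same holds for all 2545 genes that have reads and no listed exon. The 47 comprised 34 pseudogenes, all 9 RNA genes and 4 other models, were 67 to 6514 bases long, and held 19.5% of the members' reads. The other 153 members had exons listed, with a median gene length of 100764 bases against 25652 bases over the 9539 other genes with at least 850 reads. Of these 153, 59 had no read across an exon-exon junction.

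The deposited RPKM values do not show the abundance of the members with exons. For 99.3% of their values RPKM was recovered from exon reads alone, and for the members without exons it was recovered from all reads in 100% of values. Cdk8, a kinase of the Mediator complex, had 9.53 RPKM in saline 1 with 102102 reads there.

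Intron reads were 8.29% and 8.90% of gene reads with saline and 9.96% and 7.39% with immune complexes, so the highest and the lowest share both fell in the immune complex group. Within the members, the intron share was 98.47% and 98.55% with saline and 98.91% and 97.99% with immune complexes. The 95% Wilson intervals were 98.44% to 98.49%, 98.53% to 98.58%, 98.89% to 98.92% and 97.96% to 98.03%, and they cover counting error alone. Without the members, the share over all other genes was 4.37%, 4.96%, 5.24% and 4.64%. Immune complex 1 was again the highest, whereas the lowest value was then in saline 1 and not in immune complex 2.

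The members held 49.5% and 46.7% of all intron reads with saline, and 50.05% and 39.0% with immune complexes. The means were 48.1% ± 1.97 (SD, n = 2) for saline and 44.5% ± 7.79 (SD, n = 2) for immune complexes. The difference of -3.55 percentage points was smaller than the SD of the immune complex libraries. Without immune complex 2 the difference was 1.96 points, and without immune complex 1 it was -9.06 points. Members with exons and with overlapping genes below 10% of their own reads differed most. They held 30.4%, 27.9%, 31.6% and 19.4% of the intron reads in saline 1, saline 2, immune complex 1 and immune complex 2. Cdk8, Cmss1 and Jarid2, the 3 most read members and all in this class, held 15.3%, 14.1%, 16.9% and 8.32% in that order. Over the 74 members of the class, the median level in immune complex 2 was 94.4% of that in immune complex 1. The median over all members was also 94.4%, so the typical member of the class did not fall by as much. Members without exons held 8.97%, 9.30%, 9.40% and 9.11%, nearly level as a share of intron reads. Intron reads themselves were 9.96% of gene reads in immune complex 1 and 7.39% in immune complex 2, so this does not show that their levels were stable.

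**Figure D1:**
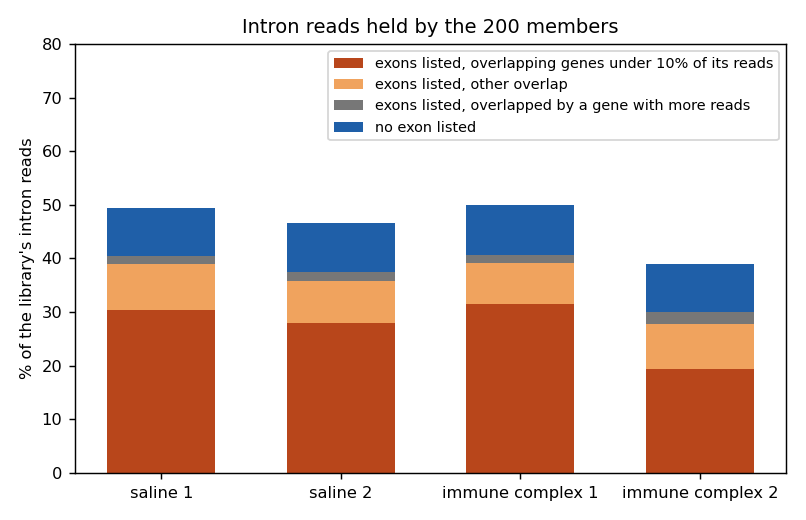
Share of each library's intron reads (y axis, %) held by the 200 members, split by listed exons and overlap with other genes; each bar is 1 library. The bars reach 49.5%, 46.7%, 50.05% and 39.0%, and the segment of members with exons and little overlap is the shortest in immune complex 2.

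The 3 most read members shared 1 pattern over the libraries. Cdk8 (ENSMUSG00000029635, chr5:146231230-146302874, plus strand) had 5023 and 5119 CPM with saline and 7265 and 2626 CPM with immune complexes. Cmss1 (chr16:57302199-57606825, minus strand) had 4252, 4237, 5800 and 2138 CPM in the same order. Jarid2, a cofactor of Polycomb repressive complex 2 (chr13:44729474-44921643, plus strand), had 3115, 3206, 4168 and 1629 CPM. In each, the saline libraries were close together and lay between the immune complex libraries. The fitted log2 differences, immune complex minus saline, were -0.04 ± 0.43 (SE) for Cdk8, -0.10 ± 0.42 for Cmss1 and -0.12 ± 0.40 for Jarid2 (n = 2 libraries a group; edgeR adjusted p not below 0.05 for any). Without immune complex 2 these became 0.52, 0.45 and 0.40, and without immune complex 1 they became -0.95, -0.99 and -0.96.

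The same 3 genes differed widely in their share of uniquely placed reads. Of the Cdk8 reads 99.996% were uniquely placed, against 35.5% for Jarid2 and 0.142% for Cmss1. Exon reads numbered 3240 for Cdk8, 408 for Cmss1 and 3997 for Jarid2. The overlapping genes had few reads of their own: the one gene overlapping Cdk8 and the one overlapping Jarid2 had 0 reads, and Filip1l, on the opposite strand of Cmss1, had 808. Whether the low share of Cmss1 came from this overlap or from repeated sequence was not tested.

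Further protein-coding members followed in rank. Zc3h7a, a zinc finger gene, had 2058, 1961, 2584 and 1210 CPM in saline 1, saline 2, immune complex 1 and immune complex 2. Arhgap21 had 1776, 1769, 2171 and 1144 CPM. Il31ra, a subunit of the interleukin-31 receptor, had 1079, 1086, 1345 and 710 CPM. All 3 genes were highest in immune complex 1 and lowest in immune complex 2. Gphn, which encodes the synaptic scaffold gephyrin, had 1049, 1033, 1296 and 744 CPM. Camk1d, a calcium/calmodulin-dependent kinase, had 909, 904, 1114 and 586 CPM. The noncoding 9330185C12Rik had 848, 817, 1049 and 446 CPM, again highest in immune complex 1 and lowest in immune complex 2.

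A pair of the most read members are gene models that span long intervals with many other genes. Gm20388 (chr8:119910841-124345722) covers 4434882 bases and 182 listed genes, of which Cox4i1, a subunit of cytochrome c oxidase, was the most read. Fgfr2, a fibroblast growth factor receptor, is listed at chr7:130162451-133123350 with 2960900 bases and 41 overlapping genes, led by the ornithine aminotransferase gene Oat. Their levels moved less between libraries: Gm20388 had 1937, 2076, 2143 and 1877 CPM. Fgfr2 had 2181, 2140, 2410 and 1713 CPM.

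**Figure D2:**
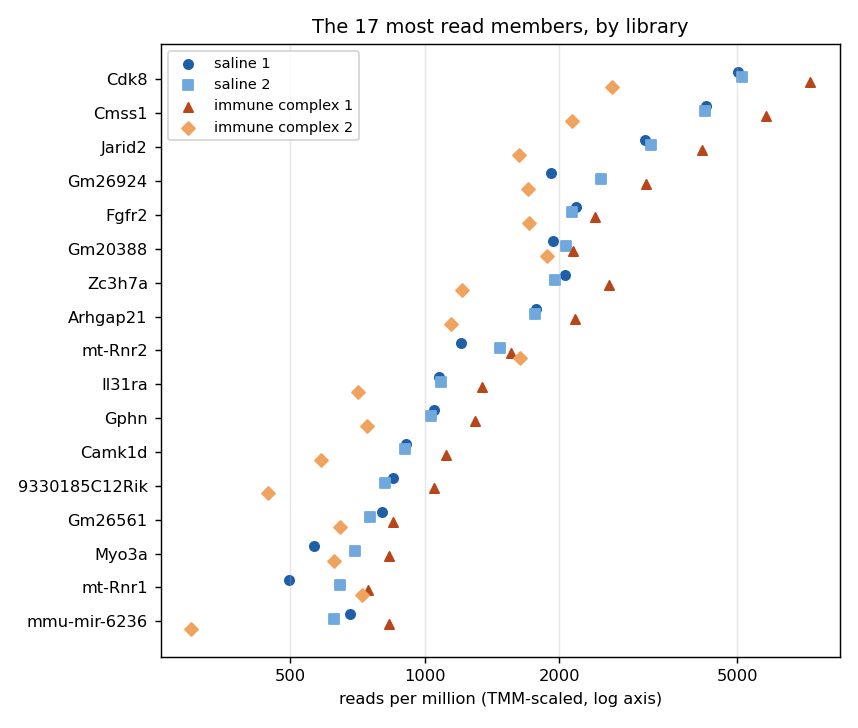
CPM (x axis, TMM-scaled, log scale) of the 17 most read members in each of the 4 libraries; each point is 1 library. Immune complex 1 lies farthest right in most rows and immune complex 2 farthest left, while mt-Rnr2 is highest in immune complex 2.

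Among the 20 most read members, 18 were highest in immune complex 1 and 17 were lowest in immune complex 2. Over all 200 this was less marked: 87 were highest in immune complex 1 and 64 in immune complex 2. The lowest level was in immune complex 2 for 76 and in saline 1 for 84. The median level in immune complex 2 was 94.4% of that in immune complex 1, against 102.1% over the 9539 other genes with at least 850 reads. Of the 200, 54 were both highest in immune complex 1 and lowest in immune complex 2, an order found in 19.5% of all genes with at least 850 reads. In 26 members the level in immune complex 2 was under 50% of that in immune complex 1, against 1.39% of the 9539 other genes with at least 850 reads. These 26 held 42.7% of the members' reads and summed to 18152 and 18028 CPM in saline, 24384 CPM in immune complex 1 and 9259 CPM in immune complex 2. In 21 of the 26 both saline libraries lay between the immune complex libraries. The 26 were picked by the gap between those libraries, which by itself favours saline values between them, and no other genes picked in that way were compared.

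The lowest ratio of immune complex 2 to immune complex 1 was 12.9%, in Gm12895. That pseudogene had 109 and 94.4 CPM with saline and 97.9 and 12.7 CPM with immune complexes. Its near-identical copy Gm12896, shown above, had 269, 242, 347 and 75.9 CPM. Of the reads of the pair, Gm12896 held 71.2%, 71.9%, 77.997% and 85.7% in saline 1, saline 2, immune complex 1 and immune complex 2, and since the sequences differ at their ends alone, reads inside the shared stretch cannot be told apart. mmu-mir-6236 had 682, 627, 830 and 301 CPM, with 100% of its reads uniquely placed. Mpped1 showed the same order with 147, 140, 205 and 41.8 CPM.

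Ribosomal and transfer RNA genes made up most of the RNA gene members. mt-Rnr2, the large mitochondrial ribosomal RNA, had 1208 and 1473 CPM with saline and 1563 and 1634 CPM with immune complexes. mt-Rnr1, the small one, had 498 and 645 CPM against 748 and 724 CPM. The glutamate transfer RNA gene mt-Te had 126 and 165 CPM against 176 and 197 CPM. All 8 mitochondrial members (these 3 with mt-Tl1, mt-Tp, mt-Tm, mt-Tq and mt-Ti) were higher in both immune complex libraries than in either saline library, by log2 differences of 0.25 to 0.56; over all tested genes 15.4% had such non-overlapping groups. None had an edgeR adjusted p below 0.05, and the genes are cut from shared precursor transcripts, so they are not independent of each other.

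Gm26924 (chr17:39846958-39848788, plus strand) was the fourth most read member and has 0 exons listed. It had 1922 and 2477 CPM with saline and 3124 and 1703 CPM with immune complexes. GENCODE M21 names the same gene Gm42418. Its interval lies wholly inside that of CT010467.1, which GENCODE types as ribosomal RNA (chr17:39846353-39848827, minus strand). Over 1244 of its 1831 bases it is 100% identical to the opposite strand of CT010467.1. That identity follows from the shared position and is not a separate match. AY036118, on the minus strand in the same interval, had 291 reads against 197190 for Gm26924.

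Pseudogene members were compared with the coding gene that their GENCODE transcript matches best over at least 80% of its length. A coding match was found for 36 of 40, with a median identity of 99.38%, and 29 matched at 98% or more. For 16 of the 36 that gene encodes a ribosomal protein. The median share of uniquely placed reads over the 40 pseudogenes was 8.08%.

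In 12 of the 36 the pseudogene had more reads than the coding gene. Gm13394 had 10245 reads while Gapdh, the glycolytic enzyme often used as a reference gene, had 377. Unlike most pseudogene members, Gm13394 had 59.0% of its reads uniquely placed, and Gapdh had 78.8%. Gapdh itself was listed at 4.13, 4.21, 5.83 and 3.50 CPM in saline 1, saline 2, immune complex 1 and immune complex 2. The stretches printed above differ at 1 of 60 bases, and the match runs over 1000 bases at 99.90% identity. Among the 64 other listed genes that match Gm13394 at 95% identity or more, Gapdh included, Gm13394 held 86.5% of the summed reads with its own.

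The same was seen for other abundant proteins. Gm15772 had 18047 reads against 290 for Rpl26, a protein of the large ribosomal subunit. Rpl3-ps1 had 37623 reads against 3639 for Rpl3, from the same subunit. Gm15487 had 36222 reads against 4189 for Atp6v0c, a subunit of the vacuolar proton pump. Between libraries Rpl3-ps1 had 460 and 435 CPM with saline and 443 and 433 CPM with immune complexes. Gm15487 had 425, 444, 470 and 365 CPM in saline 1, saline 2, immune complex 1 and immune complex 2. Gm15772 had 204, 209, 253 and 182 CPM, and Gm13394 had 121, 129, 144 and 87.3 CPM. The last 3 were highest in immune complex 1 and lowest in immune complex 2.

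Other pseudogenes held a small part of the reads of their family. Gm12715 and Actg-ps1 match Actg1, the cytoplasmic gamma-actin gene, at 99.64% and 98.28% identity. Of the reads of this family Gm12715 held 11.5%, 5.46%, 8.005% and 13.1% in saline 1, saline 2, immune complex 1 and immune complex 2. Actg-ps1 held 2.82%, 3.46%, 5.46% and 9.44%. Uniquely placed reads were 0.103% of the Gm12715 reads, 0.632% of the Actg-ps1 reads and 0.263% of the Actg1 reads. Across the 35 pairs in which both genes were tested, the log2 difference of the pseudogene and that of the coding gene had a Pearson r of -0.08 and a Spearman coefficient of -0.15, and 15 of 35 pairs had the same sign. Genes are not independent replicates and the pairs share libraries, so these are descriptions.

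Overlap with other genes was common. Of the 200 members, 143 (71.5%) shared at least 1 base with another listed gene, against 43.6% of the 9539 other genes with at least 850 reads. The comparison was not matched for gene length, and the members with exons had a longer median length than those other genes. In 129 members at least 1 overlapping gene was on the opposite strand, and whether counting used strand was not given in the sources used here, so reads of such pairs cannot be assigned to a strand. The overlapped members had another gene wholly inside them in 119 cases and lay wholly inside another gene in 2. Of the 153 members with exons 136 (88.9%) were overlapped, and of the 47 without exons 7.

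An overlapping gene with more reads than the member was present for 38 members. For the 36 of these with exons, a median of 5.55% of the member's reads was uniquely placed, against 15.8% for the 100 overlapped members with exons and no such partner and 75.7% for the 17 members with exons and no overlap. Over the 9539 other genes with at least 850 reads the median was 99.4%. Genes that overlap a member had shares of 2.63% for Xist, 2.88% for Cav1, 93.3% for Herpud1 and 96.3% for Xylb. Whether reads shared by overlapping genes are left out of the unique count was not given, so the order of these medians may be partly built into the measure.

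**Figure D3:**
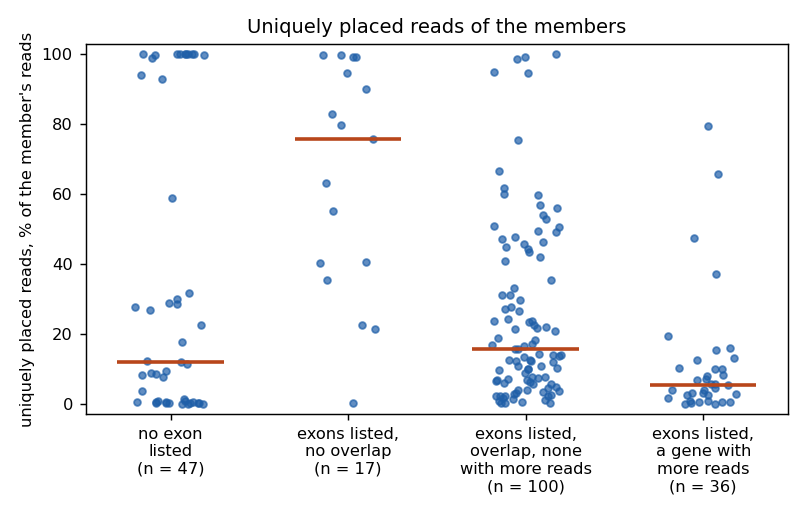
Uniquely placed reads as a share of each member's reads (y axis, %), by listed exons and overlap; each point is 1 member and the horizontal line is the median of its group. The medians are 11.9%, 75.7%, 15.8% and 5.55% from left to right, and 13 of the 47 members without exons lie above 90%.

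Named pairs show how the levels compare. Slc22a14, an organic cation transporter family gene, had 186, 226, 212 and 238 CPM in saline 1, saline 2, immune complex 1 and immune complex 2. Xylb, the xylulokinase gene on its opposite strand, had 255, 270, 310 and 260 CPM. Epo, the erythropoietin gene, is listed with a 50223-base interval that overlaps Gnb2, a G protein subunit gene. Epo had 68.4, 73.7, 81.5 and 55.4 CPM with 35 exon reads of 5939, and Gnb2 had 153, 143, 133 and 90.1 CPM. Tsix, antisense to the X inactivation RNA Xist, had 11.3, 42.8, 39.8 and 24.0 CPM, and Xist had 136, 265, 318 and 268 CPM.

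Member and partner did not move together as a rule. Over the 106 members with a tested overlapping gene, the log2 differences of the member and of its most read overlapping gene had a Pearson r of 0.09 and a Spearman coefficient of -0.02, and 43 of 106 had the same sign. For the 38 whose partner had more reads, the Pearson r was 0.08 and the Spearman coefficient -0.08, with the same sign in 15. These correlations are across genes within the same 4 libraries. Gm15890 had 12.1 and 16.8 CPM with saline and 27.02 and 41.6 CPM with immune complexes, and Herpud1, the endoplasmic reticulum stress gene on its opposite strand, had 268, 285, 272 and 283 CPM. The agouti gene a had 61.9 and 68.9 CPM with saline and 101 and 111 CPM with immune complexes, while Raly, an RNA-binding protein gene in its interval, had 132, 127, 136 and 87.1 CPM.

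**Figure D4:**
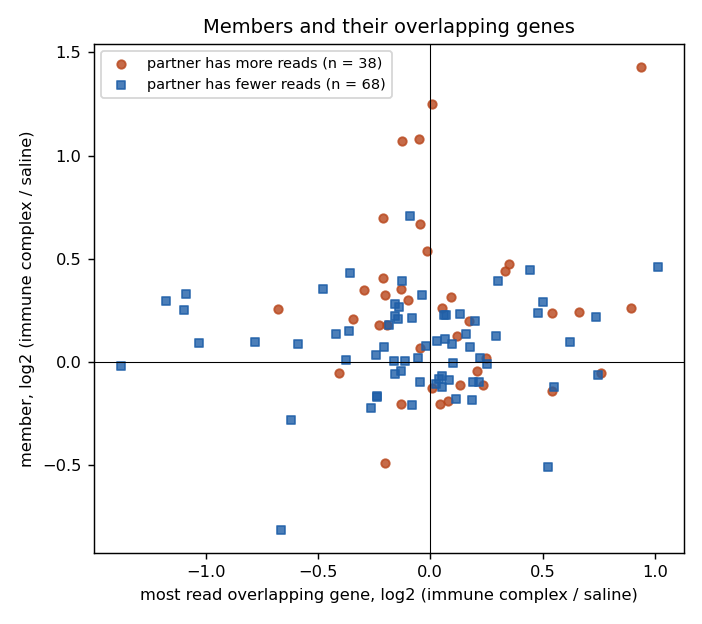
Log2 difference, immune complex minus saline, of the most read overlapping gene (x axis) and of the member (y axis) for 106 members; each point is 1 pair. The points spread over all 4 quadrants, with r = 0.09, and A930039A15Rik with Glul is the pair at the upper right.

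All 200 members passed the count filter and were tested among 16334 genes for a difference between immune complex and saline kidneys. None was called at an edgeR adjusted p below 0.05, as was no other gene (0% of 16334). An unadjusted p below 0.05 was found for 14 members (7%), against 4.59% of tested genes. Of these, 13 were higher and 1 was lower with immune complexes, against 1.98% higher and 2.6% lower over all tested genes. The groups did not overlap, with both immune complex libraries higher, in 48 members (24%), against 15.4% of tested genes. Both were lower in 11 members (5.5%), against 14.6%. The median log2 difference of the members was 0.08, against 0.01 over all tested genes. Of the 200 members 121 (60.5%) were above 0, against 51.9% of tested genes. Without immune complex 1 the members' median was 0.007, and without immune complex 2 it was 0.17. With intron reads alone as counts, filtered and scaled anew on those reads, the median was -0.11 and 72 of 200 were above 0. The members' own counts changed little, since 97.99% to 98.91% of their reads per library were intron reads. The direction of the members as a whole thus depends on which reads set the scaling. DESeq2 called 6 members, all higher, beside 0.612% of its tested genes. The authors' deposited table calls the same 6 members, beside 0.496% of its 16128 genes: 9030624G23Rik, A930039A15Rik, Actg-ps1, Sntg1, Gm15890 and Slc7a15. It holds the same counts and the submitters name DESeq2, so it is not a separate line of evidence.

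The member with the lowest p was 9030624G23Rik (chr12:24044701-24096968, minus strand), which GENCODE types as protein-coding. It had 15.1 and 21.3 CPM with saline and 60.7 and 75.9 CPM with immune complexes, a log2 difference of 1.91 ± 0.24 (SE, edgeR adjusted p = 0.381). Both immune complex libraries lay well above both saline libraries. No listed gene overlaps it, 21.4% of its reads were uniquely placed, and its exons held 25 of 3718 reads. A930039A15Rik (chr1:153905301-153916910, plus strand) had 24.6 and 26.5 CPM against 59.5 and 78.2 CPM, a log2 difference of 1.43 ± 0.20 (SE, edgeR adjusted p = 0.457). It overlaps Glul on the same strand, the gene of glutamine synthetase, which had 750 and 686 CPM against 1316 and 1439 CPM. The Glul difference was 0.94 ± 0.18 (SE, edgeR adjusted p = 0.549), and A930039A15Rik had 1 exon read of 4043.

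Slc7a15, of an amino acid transporter family, had 11.2 and 11.1 CPM with saline and 22.3 and 22.9 CPM with immune complexes. Sntg1, which encodes gamma-1-syntrophin, had 18.004 and 26.4 CPM against 47.8 and 52.9 CPM. Actg-ps1 had 18.2 and 18.6 CPM against 34.0 and 55.2 CPM. The groups did not overlap in any of the 3, with log2 differences of 1.02 ± 0.19, 1.18 ± 0.23 and 1.28 ± 0.26 (SE) and edgeR adjusted p of 0.549, 0.582 and 0.605. Actg1, its coding match, had 541 and 474 CPM with saline and 528 and 409 CPM with immune complexes, which overlap.

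In the other direction the differences were smaller. Rpl7a-ps12 had 16.0 and 18.5 CPM with saline and 11.7 and 12.6 CPM with immune complexes, a log2 difference of -0.51 ± 0.20 (SE, edgeR adjusted p = 0.99997). Gm21973, which overlaps the prolactin receptor gene Prlr, had 109 and 156 CPM against 94.96 and 93.4 CPM. Gm20646 had 199 and 197 CPM against 147 and 168 CPM. Rps6-ps4 had 13.6 and 20.3 CPM against 12.6 and 12.1 CPM. In these 4 members both immune complex libraries were below both saline libraries. Gm4735 had 15.5 and 23.2 CPM with saline and 16.6 and 8.70 CPM with immune complexes, which overlap.

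**Figure D5:**
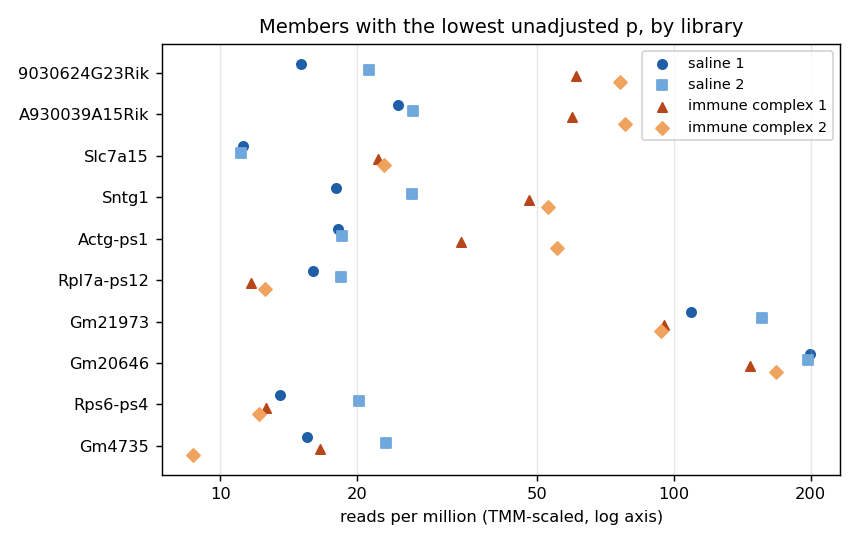
CPM (x axis, TMM-scaled, log scale) in each library for the 5 members with the lowest unadjusted p in each direction; each point is 1 library. 9030624G23Rik runs from 15.1 CPM in saline 1 to 75.9 CPM in immune complex 2, and Gm4735 is the row among the lower 5 in which the groups overlap.

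The intron share of single members also varied over the libraries. Spata5 had intron shares of 90.6%, 91.0%, 93.3% and 82.3% in saline 1, saline 2, immune complex 1 and immune complex 2. Tmem56 had 95.6%, 95.4%, 96.9% and 87.3%. Both were lowest in immune complex 2. Mrc1, the macrophage mannose receptor, had 93.0%, 93.1%, 91.0% and 85.9%. Ccdc171 ran the other way, with 85.8%, 91.6%, 95.9% and 96.6%. In immune complex 1 no member was below 90%, while 9, 5 and 9 members were in saline 1, saline 2 and immune complex 2.

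No gene of a list of 38 nuclear and intron-retaining RNAs was among the members. The list holds nuclear noncoding RNAs such as Malat1 and Neat1 and splicing factor genes such as Srsf5 and Clk1, and 12.0% of its reads were in introns. Of 37 tested, 32 were above 0 and 5 below, with a median log2 difference of 0.19, and none was called by edgeR. Its intron share was 11.4% and 12.6% with saline and 13.5% and 10.01% with immune complexes. Malat1 came nearest to the members on this list, with 79.2% of its 34710 reads in introns, and it weighs heavily in the list's share. Neat1 had 8.82%, Clk1 4.51% and Srsf5 0.340% of their reads in introns, while Luc7l had 23.0% and Clk3 25.7%. The share of the list without Malat1 was not computed.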

How the data were processed

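Kidney RNA sequencing of 2 saline and 2 immune complex libraries was used. Tools named in the submitters' processing notes are STAR 2.5.2b and DESeq2, and the build is GRCm38. Counter, annotation release and strandedness were not given in the sources used here. Per the file headers, the authors deposited unnormalized gene counts (all, unique, exon and intron reads) and RPKM. The unique reads are those called uniquely placed here. A deposited table of the authors' comparison holds log2 fold changes and p-values, coded saline over immune complex.

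Members and gene lists were chosen with earlier results of these data known. Named members were the most read, the most read of each class, those with the lowest p, those at the limits of the rule, those without overlap and those with the widest intron share range; partners and other genes were named beside them, some after their values were seen. Overlap used the deposited gene intervals. Gene types and sequences came from GENCODE M21 by gene ID (196 of 200 members found), matches from BLAST 2.17.0 (80% coverage). Total gene counts were fitted in edgeR 4.0.16 (R 4.3.3; filterByExpr, TMM, quasi-likelihood test, Benjamini-Hochberg at 0.05) and checked on simulated data. Standard errors are the log2 difference divided by the square root of F. Replicates differed beyond counting noise (chi-square per degree of freedom 19.4 in saline and 66.5 in immune complex). Alternatives were DESeq2 1.42.0, RLE scaling, no filter, a replicate block, left-out libraries, intron or unique reads, and other member rules. Some items that the naming rule takes are not reported here.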

Additional observations from a re-analysis of the deposited data

How the results depend on the processing

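Against 0 genes called by edgeR, DESeq2 called 96, no filter on low counts 2 and the replicate block 55; leaving out a library gave 0 to 279, with 279 without saline 2 and 47 without saline 1. Against 0 members, DESeq2 called 6 and the replicate block 2; leaving out a library gave 0 to 5, with 5 without saline 2 and 1 without saline 1. Same-numbered libraries did not deviate together (r = -0.13), and the labels do not pair them. The numbers crossed as a block, chosen after seeing the data, called 160 genes and 5 members. RLE scaling, intron reads, unique reads and other member rules called 0 members. The members' share of intron reads, -3.55 points between groups, ran from -9.06 to 1.96 points with a library left out. With a share of at least 95%, the members' intron share was 99.1%, 99.2% and 98.8% in saline 1, saline 2 and immune complex 2; with exons listed (chosen after seeing the data) it was 98.1% and 98.2% in saline. The overlapped share of 71.5% became 1% wholly inside another gene, 19% for genes with more reads, 63.5% at a 95% share and 88.9% with exons listed. With a library left out the log2 difference ran from -0.95 to 0.52 for Cdk8, -0.99 to 0.45 for Cmss1 and -0.96 to 0.40 for Jarid2, positive without immune complex 2; with unique reads Cmss1 gave 0.18. The direction of the 18 other named differences did not change under any alternative run. Beyond the left-out libraries the cause was not tested. Depth was 19675879 to 22791960 reads, and how far it limits these comparisons was not tested.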
